A study of Mus musculus with 40 samples.

Results

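Smooth muscle cells and pericytes are the mural cells of the heart's vessels, and 10 genes that mark them were examined: Acta2, Tagln, Myh11 and Cnn1, which make up the contractile apparatus of smooth muscle, and Pdgfrb, Rgs5, Abcc9, Kcnj8, Notch3 and Cspg4, which are used as pericyte genes. They were chosen by gene symbol, and all 10 were listed and tested in both sexes, out of 17646 genes listed in males and 17223 in females. The samples were from young adult mice, labelled heart and described by the paper as left ventricular tissue, with 1 library of polyA RNA per mouse. These samples are called hearts below. CM-Il11-Tg mice are heterozygous for α-MHC-MerCreMer, a tamoxifen-activated Cre recombinase driven by a cardiomyocyte promoter, and for Rosa26-Il11, an Il11 transgene that Cre switches on. They were sampled 1, 3 and 6 weeks after tamoxifen (T1wk, T3wk and T6wk) or without tamoxifen (T0wk). Control mice (WT in the table headers) carried MerCreMer without Rosa26-Il11 and received tamoxifen, and their labels call them baseline with no week. Controls and induced mice therefore shared the Cre and the drug, whereas T0wk mice differed from controls in both the transgene and the drug. Each group held 4 libraries per sex, except 3 for male controls and 3 for male T6wk, because 2 male libraries whose title and description give opposite groups entered no comparison.

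Arteries and arterioles are wrapped by smooth muscle cells, which set vessel calibre by contracting, and capillaries are contacted by pericytes, which stabilise the endothelium and are attracted by PDGF-B from endothelial cells acting on the receptor encoded by Pdgfrb. Notch signals from the endothelium act on Notch3 in mural cells, and myocardin with serum response factor drives the contractile genes through sequences known as CArG boxes. In the heart, some of these genes are not restricted to mural cells: Abcc9 is also expressed by cardiomyocytes, Pdgfrb by fibroblasts, and Acta2 by activated fibroblasts. In whole tissue, fewer cells of a type and less RNA per cell cannot be told apart.

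Libraries held 16663513 to 65333832 reads, and Il11 was between 0 and 0.166 CPM (read counts divided by library size, on the scale the authors deposited) in the controls, 15.5 to 49.1 CPM in T0wk hearts and 328 to 819 CPM in induced hearts. The deposited CPM are scaled by a further factor for each library, so that columns summed to 1063756 to 1196278 in controls and 817395 to 1165099 in induced hearts. On this scale the median log2 change of all genes against control was within 0.025 of 0 in every comparison. When every library was instead rescaled to a common sum of 1000000 CPM, the median of all genes at T1wk, T3wk and T6wk moved to 0.33, 0.23 and 0.16 in males and 0.28, 0.30 and 0.33 in females, and at T6wk in females 8356 genes were called higher and 1045 lower, against 3678 and 3567 on the deposited scale. Changes below are relative to the median gene of the deposited scale, and calls that need that scale are marked. The tables of the sexes were scaled separately, so tests were made within a sex and the sexes were not tested against each other. A gene was called where its adjusted p (limma on log2(CPM + 0.5), Benjamini-Hochberg over the 16931 genes tested in males or the 16956 tested in females) was under 0.05.

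None of the 10 genes was called higher than in control hearts in any comparison, by limma, edgeR or DESeq2. Rgs5 was lower at every week in both sexes, Kcnj8 was lower at every week in females and at T6wk in males, and Abcc9 was lower at T1wk in males. The 4 contractile genes were called in no comparison. The count of lower calls was 2, 1 and 2 of 10 in males at T1wk, T3wk and T6wk, where 14.6%, 8.1% and 10.9% of all genes tested were called lower, and 2 of 10 at each week in females, where 13.1%, 14.5% and 21% were. The shares of all genes called higher, of which these 10 held none, were 18.9%, 13.2% and 16.2% in males and 15.3%, 16.8% and 21.7% in females. Unadjusted p was under 0.05 for 3, 2 and 5 of the 10 genes in males and for 2 at each week in females. Over all genes tested, it was under 0.05 for 7301, 5515 and 6527 of 16931 in males. In females it was so for 6605, 6972 and 8601 of 16956. The median log2 change of the 10 genes was -0.36, -0.26 and -0.42 in males and -0.18, -0.32 and -0.20 in females. With each library rescaled to the common sum, Rgs5 was the single gene of the 10 called lower at each week in both sexes, and Cspg4 was called higher at each week in females. The shares in this paragraph are for the deposited scale. On the common sum more of all genes were called higher at T6wk in females, as counted above.

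**Figure D1:**
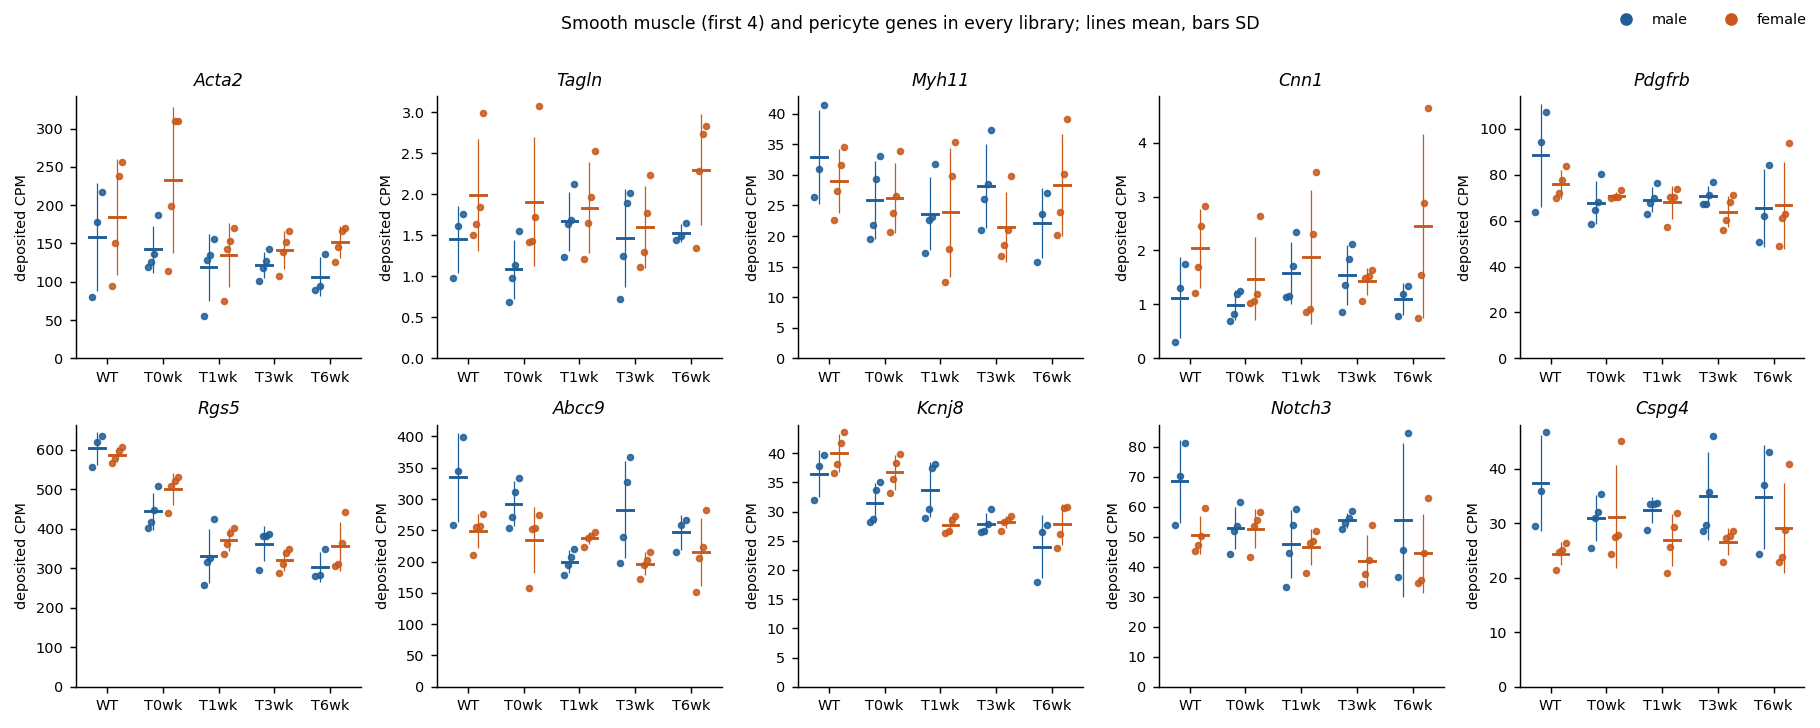
Deposited CPM (vertical axes, from 0) of the 10 genes in every library of the 5 groups, males in blue and females in orange, with the mean as a line and the SD as a bar. Rgs5 in induced hearts lies below every control of the same sex, from 258 to 441 CPM against 557 to 634 CPM, while the groups of Acta2, Tagln, Myh11 and Cnn1 overlap.

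Rgs5 (ENSMUSG00000026678, chromosome 1, 169483036 to 169524887 on the plus strand of GRCm39) encodes a regulator that shortens signalling through G proteins and is among the most used pericyte markers. Male controls held 557, 619 and 634 CPM, 603 ± 40.7 (SD, n = 3). Males at T1wk held 258, 316, 325 and 423 CPM, those at T3wk 295, 382, 382 and 387, and those at T6wk 279, 283 and 348. Every induced male was thus below every male control. The log2 change was -0.89 ± 0.15 (SE) at T1wk, -0.74 ± 0.15 at T3wk and -0.99 ± 0.16 at T6wk, with adjusted p = 0.000155, 0.00107 and 0.000103, and at T6wk Rgs5 fell by 49.8% (95% interval of the log2 change -1.33 to -0.66). Female controls lay close together at 567, 578, 597 and 607 CPM, 587 ± 18.2 (SD, n = 4). Females at T1wk held 335, 362, 388 and 401 CPM, those at T3wk 288, 309.8, 338 and 349.7, and those at T6wk 307, 311, 363 and 441. No induced female reached the lowest female control. The log2 change in females was -0.66 at T1wk, -0.87 at T3wk and -0.74 at T6wk, each with an SE of 0.11 and with adjusted p = 8.49e-05, 2.41e-06 and 1.47e-05. Among all genes tested, the Rgs5 change ranked at percentile 2.95, 2.89 and 1.6 in males and 5.37, 2.39 and 7.68 in females, counted from the most lowered gene. Rescaled to the common sum, the log2 change of Rgs5 was -0.53, -0.48 and -0.80 in males and -0.31, -0.52 and -0.34 in females, still called each time. Placing the 2 libraries with opposite labels by their titles ended the male calls of Rgs5 at T3wk (adjusted p = 0.12) and T6wk (adjusted p = 0.23). Placing them by their descriptions kept Rgs5 called at each week, and so did leaving out any 1 library.

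Kcnj8 and Abcc9 lie side by side on the minus strand of chromosome 6 (GRCm39, 142510563 to 142517830 and 142533588 to 142648571) and encode the pore, Kir6.1, and the regulatory subunit, SUR2, of the vascular ATP-sensitive potassium channel, whose opening relaxes vessels. Kcnj8 in female controls was 36.6, 38.1, 41.8 and 43.6 CPM. Females at T1wk held 26.3, 26.6, 28.6 and 29.3 CPM, those at T3wk 26.7, 28.2, 28.6 and 29.3, and those at T6wk 23.8, 26.1, 30.5 and 30.8. Each induced female was below each female control, and Kcnj8 fell by 30.3%, 29% and 30.4%, with log2 changes of -0.52, -0.49 and -0.52 (SE 0.09) and adjusted p = 0.000191, 0.000282 and 0.000116. Kcnj8 in male controls was 32.0, 37.8 and 39.6 CPM. Males at T1wk held 28.9, 30.5, 37.5 and 38.1 CPM and overlapped the controls, those at T3wk held 26.5, 26.8, 27.9 and 30.5, and those at T6wk 17.9, 26.5 and 27.7. The log2 change in males was -0.12 (adjusted p = 0.58) at T1wk, -0.38 (adjusted p = 0.073) at T3wk and -0.61 ± 0.16 (adjusted p = 0.0061) at T6wk. The call at T6wk was lost with a fit of those 2 groups alone (adjusted p = 0.058). It was also lost with placement by titles, which Il11 did not follow (adjusted p = 0.40). The value at T3wk passed the threshold with DESeq2 (adjusted p = 0.041) and with a fit of T3wk and control alone (adjusted p = 0.025). It also passed with placement by descriptions (adjusted p = 0.049). Rescaled to the common sum, Kcnj8 was called at no week in either sex, with log2 changes of -0.18, -0.15 and -0.13 in females.

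Abcc9 fell at T1wk in males, where the 4 hearts held 178, 195, 207 and 219.9 CPM against 258, 345 and 399.9 in the controls. The groups did not overlap, and the log2 change was -0.72 ± 0.18 with adjusted p = 0.0050, while the value rescaled to the common sum was -0.36 with adjusted p = 0.12. Males at T3wk ranged from 198 to 367 CPM (log2 change -0.26, adjusted p = 0.35) and those at T6wk from 215 to 267 (-0.42, adjusted p = 0.12), the last being -0.60 with adjusted p = 0.044 without male control replicate 1. Female controls held 211, 255, 256 and 276 CPM, and the log2 changes of -0.07, -0.34 and -0.24 did not pass. Kcnj11 and Abcc8, which encode the pore and regulatory subunit pair best known from the pancreas and also present in cardiomyocytes, were both called lower at each week in both sexes. Of this pair Abcc8 had the larger change, with a log2 change of -1.15 at T6wk in females, where the value rescaled to the common sum was -0.76. Rescaled to the common sum, both were called lower in males at T3wk, 1 of the pair at T1wk in males and at T3wk and T6wk in females, and neither at T1wk in females or T6wk in males.

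**Figure D2:**
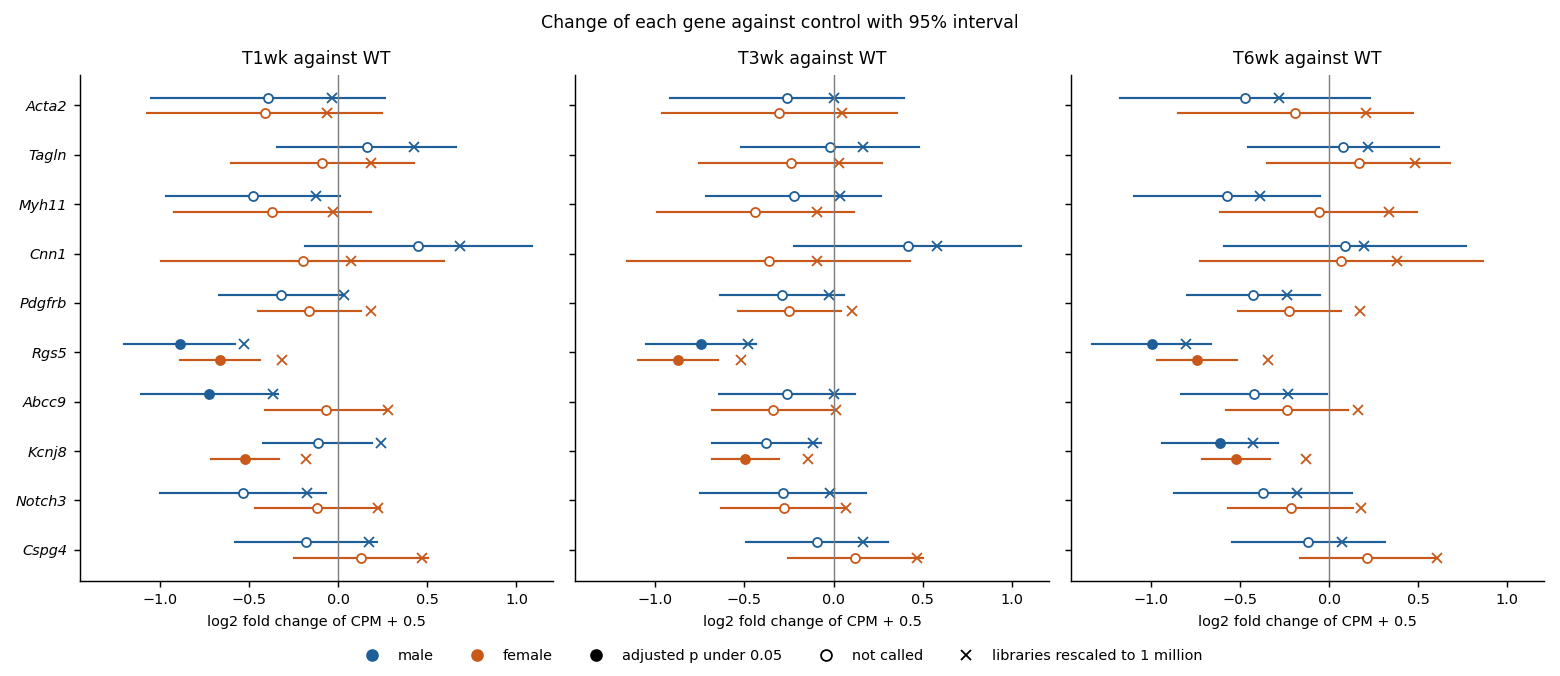
Log2 fold change of CPM + 0.5 against control (horizontal axes) for each gene at T1wk, T3wk and T6wk, with the 95% interval, males in blue and females in orange, and filled points where adjusted p was under 0.05. Crosses give the change with each library rescaled to the common sum, and Rgs5 is the gene whose points and crosses all lie below 0 and were all called.

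Promoter sequence is shown for Rgs5 and Kcnj8, the pair lower in both sexes, and for Acta2, the contractile gene best known as a target of serum response factor and not called here. Each run is the 250 bases before the start, 5′ to 3′ on the gene's strand, from the RefSeq promoter table of GRCm38.p6, which held 7 of the 10 genes: Acta2, Cnn1, Rgs5, Abcc9, Kcnj8, Notch3 and Cspg4. Capitals mark CArG boxes with at most 1 G or C among the 6 central bases.
Rgs5, chr1:169655251-169655500, plus strand: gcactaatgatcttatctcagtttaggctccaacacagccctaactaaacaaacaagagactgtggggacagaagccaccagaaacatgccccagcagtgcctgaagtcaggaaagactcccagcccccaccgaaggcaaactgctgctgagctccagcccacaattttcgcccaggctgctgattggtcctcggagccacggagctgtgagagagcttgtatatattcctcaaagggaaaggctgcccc
Kcnj8, chr6:142571615-142571864, minus strand: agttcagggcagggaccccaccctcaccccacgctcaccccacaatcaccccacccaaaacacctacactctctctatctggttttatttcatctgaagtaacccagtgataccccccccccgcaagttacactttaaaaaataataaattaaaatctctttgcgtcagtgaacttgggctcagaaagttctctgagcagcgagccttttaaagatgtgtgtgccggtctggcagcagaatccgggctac
Acta2, chr19:34255374-34255623, minus strand: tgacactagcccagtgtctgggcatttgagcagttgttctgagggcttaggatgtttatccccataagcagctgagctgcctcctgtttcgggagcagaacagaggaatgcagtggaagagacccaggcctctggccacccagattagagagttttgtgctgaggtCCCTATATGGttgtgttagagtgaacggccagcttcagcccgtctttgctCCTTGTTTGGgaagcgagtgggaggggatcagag
The Acta2 window held 2 such boxes, CCCTATATGG at bases 84 to 75 before the start and CCTTGTTTGG at bases 34 to 25, and none was found in the windows of the other 6 genes. This form was present in 8.59% of the 32851 promoters in the table, and the strict box, with A or T at all 6 central bases, in 1.47% of them and in none of the 7 windows. The STAT motif TTCNNNGAA was searched on both strands and was found in none of the 7 windows and in 7.02% of all promoters. The RBPJ motif TGGGAA, the site of the Notch pathway's DNA-binding factor, was found in Acta2 at bases 27 to 22, where it overlaps the second box, in Abcc9 at bases 221 to 216, and in 21.6% of all promoters on either strand. These are matches of letters in these windows and no measure of binding.

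Pdgfrb (GRCm39 chromosome 18, 61178212 to 61218133), the PDGF receptor that draws pericytes to vessels, was not called in any comparison. Male controls held 63.7, 94.3 and 108 CPM, and induced males held 63.1 to 76.3 CPM at T1wk, 67.5 to 76.7 at T3wk and 50.6 to 84.1 at T6wk. The lowest male control lay within the induced range, and the log2 changes were -0.32, -0.29 and -0.43 (SE 0.17 to 0.18, adjusted p = 0.15, 0.25 and 0.085). On the deposited scale the outcome turned on that library. Without male control replicate 1, Pdgfrb was called lower at T1wk, T3wk and T6wk, with log2 changes of -0.54, -0.51 and -0.64 and adjusted p = 0.018, 0.037 and 0.011. In females the log2 changes were -0.16, -0.25 and -0.22, and at T6wk replicate 3 held 93.7 CPM, above every control (69.8 to 83.9 CPM), against 49.0 to 62.8 in the other 3. Without that library Pdgfrb was called lower at T6wk (log2 change -0.40, adjusted p = 0.0072). Male T6wk replicate 4 held the highest Pdgfrb of its group, 84.1 CPM, and without it the change there was -0.62 with adjusted p = 0.013. All these calls with a library left out were made on the deposited scale. Rescaled to the common sum with all libraries, the change was 0.034 in males at T1wk and 0.18, 0.10 and 0.17 in females. It stayed below 0 in males at T3wk and T6wk, and none of these was called.

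Notch3 (GRCm39 chromosome 17, 32339794 to 32385893), the Notch receptor of mural cells, was likewise not called. Male controls held 54.0, 70.1 and 81.3 CPM and induced males 33.2 to 59.1 at T1wk, 52.4 to 58.6 at T3wk and 36.6 to 84.6 at T6wk, with log2 changes of -0.53 (adjusted p = 0.073), -0.28 (adjusted p = 0.42) and -0.37 (adjusted p = 0.26). The highest male at T6wk was replicate 4, without which the change there was -0.72 with adjusted p = 0.013. At T1wk Notch3 passed without male control replicate 1 (-0.69, adjusted p = 0.044) or without T1wk replicate 4 (-0.64, adjusted p = 0.041). Female controls held 45.1 to 59.6 CPM, and the log2 changes were -0.12, -0.28 and -0.22. The last of them was -0.40 with adjusted p = 0.045 without T6wk replicate 3, the female library with the most Notch3. These calls with a library left out were made on the deposited scale. Rescaled to the common sum with all libraries, the female changes were 0.23, 0.071 and 0.18, none of them called, while the male changes stayed below 0.

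Cspg4 (GRCm39 chromosome 9, 56772317 to 56807187) encodes NG2, a surface proteoglycan of pericytes. It was 29.5 to 46.7 CPM in male controls and 24.3 to 46.04 CPM in induced males, with log2 changes of -0.18, -0.09 and -0.12. It was 21.4 to 26.4 CPM in female controls and 20.9 to 40.9 CPM in induced females, with log2 changes of 0.13, 0.12 and 0.21 (adjusted p = 0.64, 0.65 and 0.36). Rescaled to the common sum, the female changes were 0.47, 0.47 and 0.61 and were called (adjusted p = 0.0499, 0.0494 and 0.0105), so whether Cspg4 was called in females turned on the scale.

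The contractile genes spread widely within many groups but not all, since Tagln in males at T6wk held 1.45 to 1.65 CPM. Acta2 (GRCm39 chromosome 19, 34217737 to 34232990), the smooth muscle actin, held 79.7, 178 and 217 CPM in male controls and 94.8, 151, 238 and 257 CPM in female controls. Induced males ranged from 55.8 to 156 CPM and induced females from 74.9 to 171 CPM, and the lowest control of each sex lay inside that range. The log2 changes were -0.39, -0.26 and -0.47 in males and -0.41, -0.30 and -0.19 in females, with SEs of 0.31 to 0.34 and adjusted p from 0.32 to 0.66. At T6wk the 95% intervals ran from -1.17 to 0.23 in males and from -0.85 to 0.47 in females, so a fall by more than a factor of 2 was inside the male interval. Myh11 (GRCm39 chromosome 16, 14012399 to 14109236), the smooth muscle myosin heavy chain, held 26.4, 31.0 and 41.4 CPM in male controls and 22.6, 27.3, 31.6 and 34.5 CPM in female controls. Its log2 changes were -0.48, -0.22 and -0.57 in males (adjusted p = 0.13, 0.56 and 0.097) and -0.37, -0.44 and -0.06 in females. Induced hearts reached 37.4 CPM in males and 39.2 CPM in females, so the groups overlapped.

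Tagln (transgelin, an actin-binding protein, GRCm39 chromosome 9, 45840909 to 45847404) and Cnn1 (calponin, which restrains actomyosin, chromosome 9, 22010512 to 22020926) were the lowest of the 10 genes. Tagln was 0.682 to 3.08 CPM over all grouped libraries, from 17 to 108 reads. Cnn1 was 0.303 to 4.64 CPM, from 8 to 108 reads. The log2 changes were 0.16, -0.02 and 0.08 for Tagln and 0.45, 0.42 and 0.09 for Cnn1 in males. In females they were -0.09, -0.24 and 0.17 for Tagln and -0.20, -0.36 and 0.07 for Cnn1, and no adjusted p was under 0.27 in either sex. On the opposite strand, the lncRNA Gm48529 covers 60.7% of Tagln's exon bases and Elof1 covers 35.1% of those of Cnn1. Gm48529 was listed at 0.046 to 1.55 CPM and Elof1 at 10.8 to 22.3 CPM. The strand setting of the read counting is not given in the sources used here, so how many reads of these 2 genes were set aside or shared was not tested. Acta2, Notch3 and Abcc9 had 9.33%, 8.92% and 1.36% of their exon bases covered by an opposite-strand gene, and Rgs5, Kcnj8, Pdgfrb, Myh11 and Cspg4 had none.

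Divided by exon length, the level in control hearts was highest for Rgs5, at 98.1 CPM per kb in males and 95.5 in females. Acta2 followed at 49.1 and 57.4 CPM per kb, then Abcc9 at 28.8 and 21.5. Pdgfrb (10.9 and 9.37) and Kcnj8 (9.68 and 10.6) changed places between the sexes and overlapped over libraries in each. Notch3 came next at 7.60 and 5.61, then Myh11 at 4.33 and 3.82, Cspg4 at 3.12 and 2.04, Tagln at 0.71 and 0.976, and Cnn1 at 0.411 and 0.747 CPM per kb. Over the control libraries, the ranges of Tagln and Cnn1 also overlapped in both sexes, and in males so did those of Acta2 and Abcc9, of Kcnj8 and Notch3, and of Myh11 and Cspg4.

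Without tamoxifen the transgenic hearts held low Il11 and none of the 10 genes was called against control by limma, edgeR or DESeq2. Unadjusted p was under 0.05 for 2 genes in males, Rgs5 and Pdgfrb, and for 1 in females, Rgs5. Over all genes tested, it was under 0.05 for 1789 of 16931 in males and 2605 of 16956 in females. Of all genes, 0.561% were called higher and 0.0354% lower in males, and 2.41% and 0.466% in females. Rgs5 in T0wk hearts was 403, 417, 447 and 508 CPM in males and 441, 509, 520.0 and 531 CPM in females. On the deposited scale these values lay below every control of the same sex. Rescaled to the common sum, T0wk hearts and controls overlapped in Rgs5 in both sexes. The log2 change of Rgs5 was -0.45 ± 0.15 in males (adjusted p = 0.25) and -0.24 ± 0.11 in females (adjusted p = 0.29). Set against T0wk in place of control, Rgs5 and Abcc9 were called lower at T1wk in males (log2 change -0.44 and -0.54). At T3wk in males none of the 10 genes was called by limma, edgeR or DESeq2. There 1 of them had unadjusted p under 0.05, as had 4756 of the 16931 genes tested. Rgs5 was called lower at T6wk in males (-0.55). The 2 male calls at T1wk were the least stable, since leaving out any of 6 single libraries (T0wk replicate 2, 3 or 4, or T1wk replicate 1, 2 or 3) ended at least 1 of them, and without T0wk replicate 4 or T1wk replicate 2 both were lost. In females Rgs5 (-0.43, -0.64 and -0.50) and Kcnj8 (-0.40, -0.37 and -0.40) were called lower at each week. Without female T0wk replicate 3, the T0wk library with the most Il11, Acta2 was also called lower against T0wk at each week (-1.05, -0.94 and -0.82) and Abcc9 at T3wk (-0.41). The shares of all genes called in either direction against T0wk were 18.8%, 16.1% and 20.4% in males and 12.6%, 16.7% and 22.8% in females at T1wk, T3wk and T6wk. Rescaled to the common sum, 0, 0 and 1 of the 10 genes were called against T0wk in males and 0, 1 and 0 in females. The shares of all genes given before are for the deposited scale and are no reference for these counts. These comparisons share their induced libraries with those against control.

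Between weeks, none of the 10 genes was called in either sex by limma, edgeR or DESeq2. T3wk against T1wk gave 1 gene at unadjusted p under 0.05 in males and 0 in females, T6wk against T1wk gave 1 and 0, and T6wk against T3wk gave 0 and 0. Over all genes tested, T3wk against T1wk gave 2710 of 16931 in males and 1699 of 16956 in females at unadjusted p. T6wk against T1wk gave 2615 and 2137. In all genes 0.0177% were called in males and 0.218% in females for T3wk against T1wk, 0.165% and 1.03% for T6wk against T1wk, and 0% in both sexes for T6wk against T3wk. For the last of these limma gave 0 called genes with 1072 in males and 2572 in females at unadjusted p under 0.05, edgeR gave 0 in both, and DESeq2 gave 1 in males and 117 in females.

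The genes around the 10, taken from lists, changed in both directions. For the lists below, the shares of all genes tested on the deposited scale are the reference. They are no reference for the counts on the common sum, where the median change of all genes was higher, as given above. At T6wk in females many more of all genes were called higher there, also as given above. In males 18.9%, 13.2% and 16.2% of them were called higher at T1wk, T3wk and T6wk, and 14.6%, 8.1% and 10.9% lower. In females 15.3%, 16.8% and 21.7% were called higher and 13.1%, 14.5% and 21% lower. Of 15 other genes of the smooth muscle apparatus, 4, 2 and 3 were called higher and 4, 5 and 4 lower in males at T1wk, T3wk and T6wk, and 1, 2 and 4 higher and 2, 5 and 5 lower in females. On the common sum, 5, 2 and 3 were called higher and 1, 1 and 2 lower in males, and 6, 4 and 7 higher and 1, 1 and 2 lower in females, so the balance of directions turned on the scale. The largest fall was that of Smtn (smoothelin), at -1.30 in females at T6wk, and the largest rise that of Sncg (gamma-synuclein), at 1.23 in males at T6wk. Of 19 other mural genes, 4, 3 and 4 were called higher and 4, 2 and 3 lower in males, and 3, 3 and 6 higher and 6, 7 and 7 lower in females. Among them Steap4 had the largest rise, 1.22 in females at T1wk. Rescaled to the common sum, the calls of the mural list became 8, 5 and 4 higher and 0, 0 and 2 lower in males. In females they became 7, 9 and 10 higher and 2, 3 and 2 lower. The balance of this list thus moved toward higher calls on the common sum, as did that of all genes at T6wk in females. Steap4 was called higher at each week in both sexes on either scale, and Sncg in all of these but T1wk in females on the deposited scale.

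Upstream of the contractile genes, Myocd, which encodes myocardin and is also expressed by cardiomyocytes, had log2 changes of -1.44, -1.16 and -1.18 in males and -0.70, -0.85 and -0.84 in females, all called, with values rescaled to the common sum that were called in males only (-1.08, -0.90 and -0.99). Mrtfa, a related coactivator, had the largest rise of the 7 genes of this list, 0.85 at T6wk in males. Of 13 genes of the Notch pathway other than Notch3, none was called higher and 5, 2 and 1 lower in males, and 1 was called higher and 7, 6 and 6 lower in females. With the common sum, 2, 1 and 1 were called higher and 2, 1 and 1 lower in males, and 2 higher and 4 lower at each week in females, so that the fall without a rise in males held on the deposited scale only. Heyl, a transcriptional repressor that Notch induces, had the largest fall, with log2 changes of -1.66, -1.57 and -1.78 in males and -1.49, -1.76 and -1.44 in females. It was also called at each week with libraries rescaled to the common sum, at -1.05 to -1.59. Rbpj, the pathway's DNA-binding factor, had the largest rise, 0.67 at T6wk in females. Of the 5 genes of the PDGF list (the ligands and Pdgfra, which is also a fibroblast marker), Pdgfc, a ligand of that receptor, rose by 0.86 to 1.45 at every week in both sexes on either scale. Pdgfb, the ligand of the pericyte receptor, had the largest fall of that list, -0.55 in females at T3wk, where the value rescaled to the common sum was -0.20 and not called. Of the other muscle actins, Acta1 (skeletal) rose by 1.61 in males at T1wk and was at -1.19 in females at T3wk, without a call.

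Markers of other cell types moved in the same hearts. The 8 endothelial markers summed to 936 to 1129 CPM in male controls and 623 to 885 CPM in induced males, and to 899 to 1070 CPM in female controls and 610 to 789 CPM in induced females, so the sums did not overlap on the deposited scale. They overlapped after rescaling to the common sum, at 785 to 1062 CPM in controls and 648 to 945 CPM in induced hearts in males, and at 761 to 898 CPM and 619 to 838 CPM in females. Of the 8, 3 to 5 were called lower and none higher, led by Kdr (-1.18 in males at T6wk), and rescaled to the common sum 0 to 4 were called lower and 0 or 1 higher. The 6 macrophage markers were all called higher at each week in both sexes on either scale. Their sums were 74.4 to 126 CPM in male controls and 273 to 412 CPM in induced males. In females they were 70.4 to 91.2 CPM in controls and 315 to 441 CPM in induced hearts. Of the 8 fibroblast markers, which include Pdgfra, 6 or 7 were called higher and 1, Gsn, lower. Fibroblast sums were 1369 to 1637 CPM in male controls and 2650 to 4691 CPM in induced males. In females they were 1837 to 2121 CPM in controls and 2790 to 6381 CPM in induced hearts. Of the 8 markers of activated fibroblasts, 5 or 6 were called higher and 0 or 1 lower. Cardiomyocyte markers summed to 49256 to 59778 CPM in male controls and 29630 to 51380 CPM in induced males. In females they summed to 32297 to 52857 CPM in controls and 26837 to 43682 CPM in induced hearts. From 2 to 4 of these 8 markers were called lower and none higher. After rescaling to the common sum, 0 or 1 of these was called lower and 0 or 1 higher. Of 6 mesothelial markers 5 were called higher at each week in females and 0 in males. Of the 4 atrial markers, 2 were tested in males and 3 in females. Among them Nppa was called higher at T1wk and T3wk in males and at T1wk and T6wk in females. In females at T6wk the atrial sum was 1546 CPM in replicate 2 and 62.9 to 167 CPM in the other libraries. Female controls held 37.4 to 76.6 CPM. The paper describes Nppa as a cardiomyocyte stress marker, so its calls need not reflect atrial tissue. Whether atrial tissue was present was not tested. Of 4 Schwann cell markers, 1 was called higher, at T6wk in females. No listed marker was at 0 in all libraries of a group. The part of these markers in the values of the 10 genes was not tested.

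**Figure D3:**
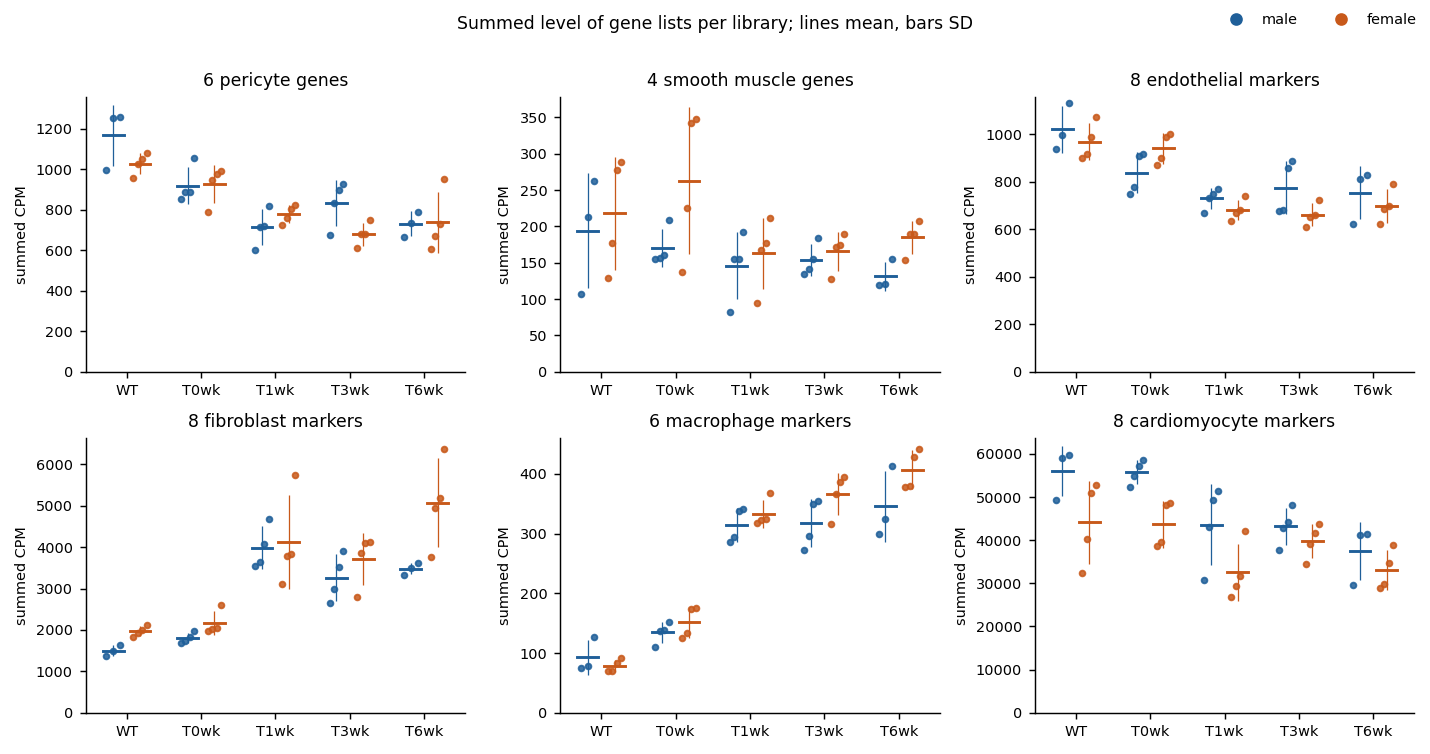
Summed deposited CPM per library (vertical axes, from 0) of the 6 pericyte genes, the 4 smooth muscle genes and 4 marker lists, by group and sex, with the mean as a line and the SD as a bar. The sums of pericyte genes and of endothelial markers are lower in induced hearts than in controls on this scale and overlap them once libraries are rescaled to the common sum, while fibroblast and macrophage sums are higher. Rgs5 and Abcc9 make up most of the pericyte sum, and Acta2 most of the smooth muscle sum.

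The summed level of the 6 pericyte genes was 994 to 1257 CPM in male controls and 599 to 927 CPM in induced males, and 956 to 1079 CPM in female controls and 604 to 952 CPM in induced females. The groups overlapped after rescaling to the common sum, at 833 to 1179 CPM in controls and 639 to 970.3 CPM in induced hearts in males, and at 804 to 905 CPM and 640.2 to 1010 CPM in females. Most of each sum came from Rgs5 and Abcc9, so it mainly restates those genes. On the deposited scale their means were 603 and 335 CPM in male controls and 587 and 249 CPM in female controls. The ratio of Rgs5 to Pdgfrb CPM, which does not depend on the scale of a library, was 7.12 to 8.43 in female controls and 4.53 to 6.36 in induced females, without overlap. In males it was 5.89 to 8.75 in controls, 3.81 to 5.55 at T1wk and 4.14 to 5.66 at T3wk, without overlap, and 3.37 to 6.87 at T6wk, where 1 heart lay within the control range. The ratio of Rgs5 to Notch3 was 10.02 to 12.8 in female controls and 6.49 to 9.91 in induced females, also without overlap. In males it was 7.79 to 10.3 in controls, 5.50 to 7.88 at T1wk, 5.27 to 7.29 at T3wk and 3.35 to 9.49 at T6wk, and overlapped at T1wk and T6wk. The ratio of Kcnj8 to Pdgfrb was 0.454 to 0.605 in female controls and 0.326 to 0.504 in induced females and overlapped.

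Within groups the contractile genes other than Acta2 moved together. Across libraries, after each group's mean was removed, Pearson's r between Tagln and Cnn1 was 0.82 in males (18 libraries) and 0.83 in females (20 libraries), and in 9 of the 10 groups the same library was highest for both. Tagln and Myh11 shared their highest library in 8 groups, Myh11 and Cnn1 in 7, and Acta2 shared it with Tagln in 5. Within groups Pdgfrb followed Notch3, with r = 0.75 in males and 0.81 in females, and followed Cspg4 in males (0.82) more than in females (0.50). These correlations are descriptions over libraries that share a scaling factor, and no p is given for them.

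**Figure D4:**
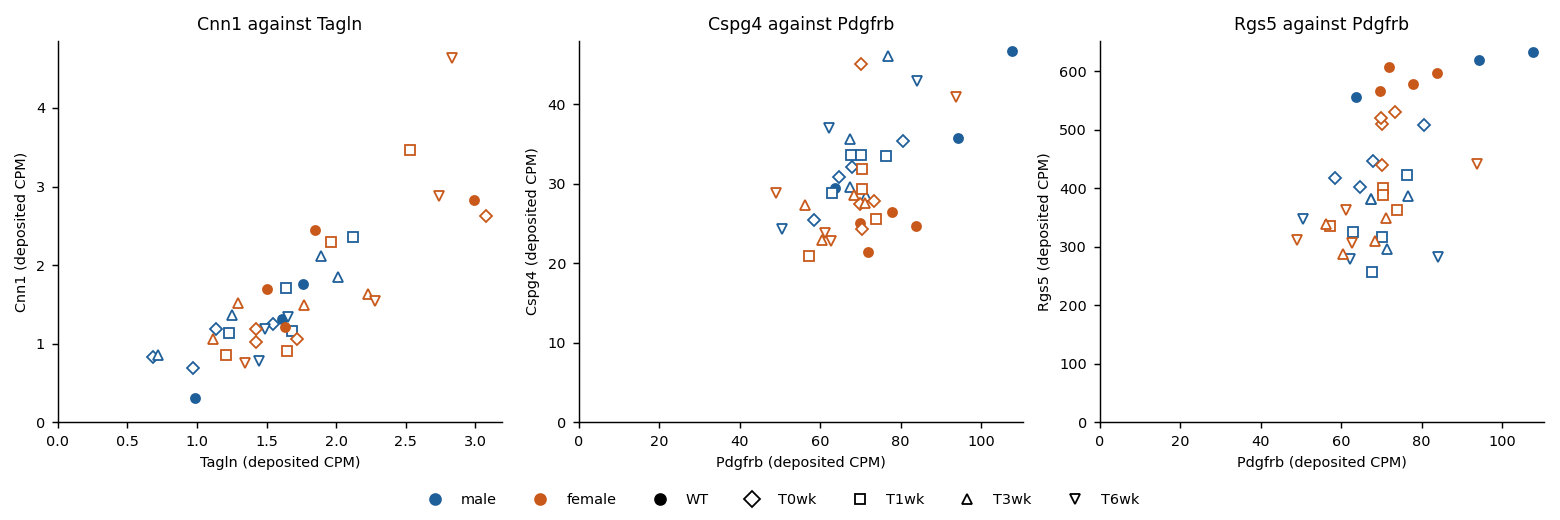
Deposited CPM of 3 pairs of genes, 1 point per library, with males in blue, females in orange, controls filled and the other groups as open symbols. Cnn1 rises with Tagln across libraries of all groups, while controls lie above the induced hearts in Rgs5, from 557 to 634 CPM, over the range of Pdgfrb. Males and females were scaled separately.

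Over all grouped libraries, the genes whose log2 level followed each of the 10 most closely were found among 16627 genes by the lower of the male and female r (18 and 20 libraries). Rgs5 was most like Ptprm (r = 0.92 in males and 0.93 in females), a receptor phosphatase, and Sparcl1 (0.91 and 0.91). Abcc9 was most like Cog5 (0.87 and 0.87) and Ppm1l (0.89 and 0.85), Kcnj8 like Wscd1 (0.76 and 0.89) and Sntb1 (0.78 and 0.76), and Notch3 like Ndst1 (0.82 and 0.81) and Soga1 (0.80 and 0.80). Pdgfrb was most like Lamc1 (0.76 and 0.77), a laminin chain, and Fmnl3 (0.76 and 0.76). Tagln and Cnn1 had the same leading gene, Myl9, the smooth muscle myosin light chain (0.79 and 0.75 for Tagln, 0.74 and 0.83 for Cnn1), followed by Susd5 for Tagln (0.61 and 0.82) and Nkd1 for Cnn1 (0.72 and 0.72). Myh11 was most like Olfml2a (0.64 and 0.70) and Itga8 (0.65 and 0.62). Acta2 was most like Ift122 (0.62 and 0.63) and Crybb1 (0.64 and 0.60), and Cspg4 like Fads3 (0.63 and 0.59) and Cep170b (0.56 and 0.72).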

How the data were processed

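RNA of 40 mouse hearts (left ventricular tissue per the paper) was measured by polyA RNA-seq with a directional kit. Per the labels and the paper's methods, the authors aligned reads to GRCm39 with STAR and counted them on Ensembl genes with featureCounts. They deposited 1 table of CPM per sex, a signal in which counts are divided by library size and a further library factor, so the values were tested on the log scale planned for CPM. All values (100% in every library) lay within 0.001 of a whole multiple of 1 step, and whole reads were recovered by dividing by it.

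Genes with CPM of at least 0.5 in at least 3 libraries were tested on log2(CPM + 0.5) with limma 3.58.1 (R 4.3.3, trend, 5 groups of a sex in 1 fit, Benjamini-Hochberg, threshold 0.05), where a fold change understates that of low genes. The fit was tested on simulated data. Intervals are 95%. Alternatives were other pseudocounts, filters, scalings and groups in the fit, a replicate block, edgeR 4.0.16 and DESeq2 1.42.0 on recovered reads, the 2 libraries with opposite labels placed either way, and each library left out. Rescaling to a common sum was added after the data were seen. Members, lists and marker genes were chosen with earlier results of these data known. From each list the genes with the largest change against control in either direction were named, and for each of the 10 genes the 2 most alike, except 1 gene that is not reported here. Gene positions and exon lengths come from GENCODE vM39. P-values rest on the spread between mice.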

Additional observations from a re-analysis of the deposited data

Results flagged for a closer look

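Among 80 groups of 4 libraries (10 genes, the 8 groups of 4), 4 held a library apart from the other 3 by Dixon's criterion, which chance alone meets in about 1 group in 20. Rgs5 in males at T3wk was 295 CPM in replicate 1 and 382 to 387 CPM in the other 3, all below the controls. Cspg4 in males at T1wk was 28.8 CPM in replicate 4 and 33.5 to 33.7 CPM in the others. Pdgfrb in T0wk females was 73.4 CPM in replicate 2 and 69.8 to 70.3 CPM in the others, a small gap in absolute terms. Cnn1 in T0wk females was 2.63 CPM in replicate 4 and 1.02 to 1.19 CPM in the others.

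The 2 male libraries with opposite labels were compared with the highest male control. Tagln and Cnn1 were each at 1.89 CPM in the library titled control and described as 6 weeks, against a highest male control of 1.76 CPM for both. Il11, against a highest male control of 0.147 CPM, was 0.597 CPM in the library titled 6 weeks and described as control and 511 CPM in the library titled control and described as 6 weeks. No cause was tested for any of these.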

How the results depend on the processing

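Rgs5 was called lower against control at every week in both sexes under each alternative tried but 1. That was the placement of the 2 libraries with opposite labels by title, which their Il11 did not follow. Of the repeated counts of called genes 478 were within 1.5 times the reported count and 41 were not, and of the repeated log2 changes 1239 kept their direction and side of the threshold, 55 changed sign, 24 passed the threshold anew and 28 no longer passed it. Cnn1 and Tagln had the fewest reads, 8 to 108 a library. The cause of the differences below was not tested.

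Each library was rescaled to a common sum of 1000000 CPM, a choice made after the data were seen. This gave 1 gene lower at T1wk and 1 at T6wk in males, 0 against T0wk at T1wk in males, 1 gene lower and 1 higher at each week in females, and 0, 1 and 0 genes against T0wk in females at T1wk, T3wk and T6wk. It changed the sign of the log2 change against control in males at T1wk for Pdgfrb (0.034), Kcnj8 (0.24) and Cspg4 (0.17), at T3wk for Acta2 (0.0027), Tagln (0.17), Myh11 (0.037), Abcc9 (0.0032) and Cspg4 (0.17), and at T6wk for Cspg4 (0.073). In females it did so at T1wk for Tagln (0.18), Cnn1 (0.070), Pdgfrb (0.18), Abcc9 (0.28) and Notch3 (0.23), at T3wk for Acta2 (0.049), Tagln (0.033), Pdgfrb (0.10), Abcc9 (0.013) and Notch3 (0.071), and at T6wk for Acta2 (0.21), Myh11 (0.33), Pdgfrb (0.17), Abcc9 (0.16) and Notch3 (0.18).

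At T6wk against T0wk in males, 2 genes were called with median-of-ratios scaling, with DESeq2, with placement by description and with the replicate block, against 1. The replicate block changed no other count, and the numbers did not pair the libraries: the correlation of same-numbered deviations averaged 0.013 in males (33 pairs) and 0.025 in females (40 pairs). At T3wk in males 2 genes were lower with DESeq2, with a fit of those 2 groups alone and with placement by description, and 0 with placement by title. With a fit of the 2 groups alone, 1 gene was lower at T6wk in males, 4 at T3wk in females (with Pdgfrb and Abcc9), and 1 differed at T6wk from T0wk in females. Placement by title gave 0 genes lower at T6wk in males, and 0 against T0wk at T1wk and T6wk. Placement by description gave 1 gene at T6wk against T1wk in males. Cnn1 at T6wk in males was -0.065 with edgeR, -0.070 with DESeq2 and -0.11 by title. Tagln in males was 0.080 at T3wk by description and -0.12 at T6wk by title, and by title Kcnj8 at T1wk was 0.073 and Cspg4 at T3wk 0.032 in males.

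Leaving out 1 library at a time gave 2 to 4 genes lower at T1wk, 1 to 2 at T3wk and 2 to 4 at T6wk in males, and 2 to 4 at T6wk in females. Against T0wk it gave 0 to 2 genes at T1wk and 1 to 2 at T6wk in males and 2 to 4 at T3wk in females. The log2 change of Tagln in males ranged from -0.025 to 0.28 at T1wk, -0.21 to 0.19 at T3wk and -0.11 to 0.20 at T6wk, and in females from -0.22 to 0.085 at T1wk. That of Acta2 ranged from -0.69 to 0.026 at T3wk in males and from -0.47 to 0.0036 at T6wk in females. That of Cnn1 ranged from -0.028 to 0.72 at T3wk and -0.35 to 0.39 at T6wk in males and from -0.49 to 0.023 at T1wk and -0.26 to 0.42 at T6wk in females. That of Cspg4 in males ranged from -0.25 to 0.079 at T3wk and -0.29 to 0.12 at T6wk, and that of Myh11 in females from -0.23 to 0.089 at T6wk.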

Other observations

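The 2 male libraries with opposite labels belong to no comparison, and their values for the 10 genes are given as CPM. The library titled control and described as 6 weeks held Rgs5 at 375, Kcnj8 at 21.4, Abcc9 at 308, Pdgfrb at 66.7, Notch3 at 45.5, Cspg4 at 25.7, Acta2 at 94.2 and Myh11 at 21.4. The library titled 6 weeks and described as control held Rgs5 at 523, Kcnj8 at 34.5, Abcc9 at 322, Pdgfrb at 75.4, Notch3 at 60.9, Cspg4 at 30.5, Acta2 at 180.4, Myh11 at 29.01, and Tagln and Cnn1 at 0.955 each.

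The ratio of Acta2 to Myh11 CPM, which does not depend on the scale of a library, ran from 3.01 to 5.76 in male controls, from 3.00 to 9.40 in female controls, from 2.47 to 8.65 in induced males and from 3.71 to 12.2 in induced females, so that the groups overlapped. The ratio of Kcnj8 to Abcc9 at T1wk was 0.138 to 0.192 in males, above the male controls (0.095 to 0.124), and 0.108 to 0.123 in females, below the female controls (0.138 to 0.174).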
